A study of Sus scrofa with 24 samples.

Results

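Splicing factor and hnRNP genes were described in the livers of 24 pig fetuses, each measured on 1 Affymetrix Snowball array. The members were all genes whose symbol in the array's annotation starts with SNRP, with SF3A or SF3B and a number, with SRSF or its older form SFRS and a number, or with HNRNP. This rule found 40 genes among the 13754 named genes of the array, under 41 annotated symbols because SRSF6 was also listed as SFRS6, and on 78 of the 26426 named probe sets. One probe set per gene was used, the one with the highest mean level. The fetuses were F2 offspring of a cross of German Landrace (DL) and Pietrain (Pi) pigs, and all were collected at 63 days post conception (dpc) without any treatment. The study chose littermates that were growth restricted (IUGR) or appropriate for gestational age (AGA), but the labels used here name each liver by its fetus number only. Growth group, sex and dam of the single fetuses were not mapped, and no comparison between groups was made. All values are given over the 24 livers as lowest, median and highest level, and since the fetuses include siblings the livers are not fully independent.

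Splicing removes introns from the precursor of an mRNA and is carried out by the spliceosome, which is built from small nuclear ribonucleoproteins (snRNPs). The Sm proteins form a ring around the snRNAs of U1, U2, U4 and U5, the SF3A and SF3B complexes belong to the U2 snRNP and help it to bind the branch site, and SR proteins bind exons and recruit the splicing machinery. The hnRNP proteins coat nascent RNA, and several of them counteract SR proteins at splice sites or take part in mRNA export, stability and translation. The fetal liver holds hepatocytes beside blood-forming cells, which are mainly erythroid, and the array measured the RNA of this whole tissue.

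The deposited values are log2 levels obtained by robust multichip average (RMA), and a gene was kept when 18 or more of the 24 arrays gave it a level of 6 or higher. This filter passed 3379 named genes. Array medians ran from 2.81 to 2.89, and the highest correlation of an array with any other array lay between 0.964, in fetus 274, and 0.986. Fetuses 311 and 312 stood apart on the first principal component, which held 22.5% of the variance of the filtered genes. The 69 background control probe sets had a median of 1.48 to 1.62 and a 95th percentile of 6.52 to 6.89 on the different arrays. In what follows, background means levels up to this percentile. Of the marker genes of hepatocytes 16 of 17 passed the filter, with AHSG below 6 in all livers, and of those of erythroid cells 10 of 15 passed, 4 more having no named probe set and KLF1 lying below 6 in all livers.

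Of the 40 genes 26 passed the filter, and 24 of these were at or above 6 in all 24 livers. All 6 SF3 genes passed (SF3A1, SF3A3, SF3B1, SF3B3, SF3B4 and SF3B5), against 11 of 15 hnRNP genes, 4 of 7 SR genes and 5 of 12 genes for Sm and snRNP proteins. The median levels of the 26 genes ran from 6.16 to 10.22 on the log2 scale, and 20 of them were above 6.89, the highest background percentile of any array, in all livers. HNRNPD, SF3B5, SNRPA1, SNRPC, SNRPD2 and SNRPG were the 6 with a lowest level below 6.89. Of these, HNRNPD and SNRPD2 stayed above the background percentile of the same array in every liver. Their lowest levels were 6.87 against 6.748 in fetus 329 and 6.58 against 6.559 in fetus 370. SF3B5 and SNRPC were below that percentile in every liver, SNRPG in every liver but fetus 370, and SNRPA1 in most livers.

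The 14 genes that failed the filter were SNRPB, SNRPB2, SNRPD1, SNRPD3, SNRPE, SNRPF, SNRPN, SRSF9, SRSF10, SRSF12, HNRNPA0, HNRNPA3, HNRNPH2 and HNRNPUL2. Their means lay between 1.31 and 5.81, and 13 of them were below 6 in every liver. SNRPD1, which encodes a protein of the Sm ring, came nearest to the limit, with levels of 5.37 to 6.19, a median of 5.79 and 5 livers at or above 6. The other Sm ring genes SNRPD3 and SNRPE had medians of 4.99 and 5.0, with ranges of 4.58 to 5.53 and 4.68 to 5.30. A low level of a probe set does not show that the RNA is absent, since probes differ in how well they hybridize. Only members that passed are described from here on.

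The levels of the members differed little between the livers. The span of a gene, its highest liver over its lowest liver, was 1.23-fold to 1.98-fold with a median of 1.46-fold, against a median of 1.64-fold and a highest span of 27.6-fold over all 3379 filtered genes. None of the 26 members had a span over 2-fold, where 18.8% of all filtered genes did. When the medians of the arrays were aligned, SF3A1 reached 2.08-fold and was the only member over this limit. A span over 1.5-fold was found for 10 of 26 members, or 38.5%, against 70.7% of all filtered genes. Among genes with a mean level of at least 7 it was found for 8 of 22 members, or 36.4%, against 66.3% of all such genes. The median SD was 0.139 for the members and 0.177 for all filtered genes on the log2 scale. These are descriptions of a list chosen by gene name, and other lists also had narrow spans, with a median of 1.45-fold for 38 cytosolic ribosomal protein genes.

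**Figure D1:**
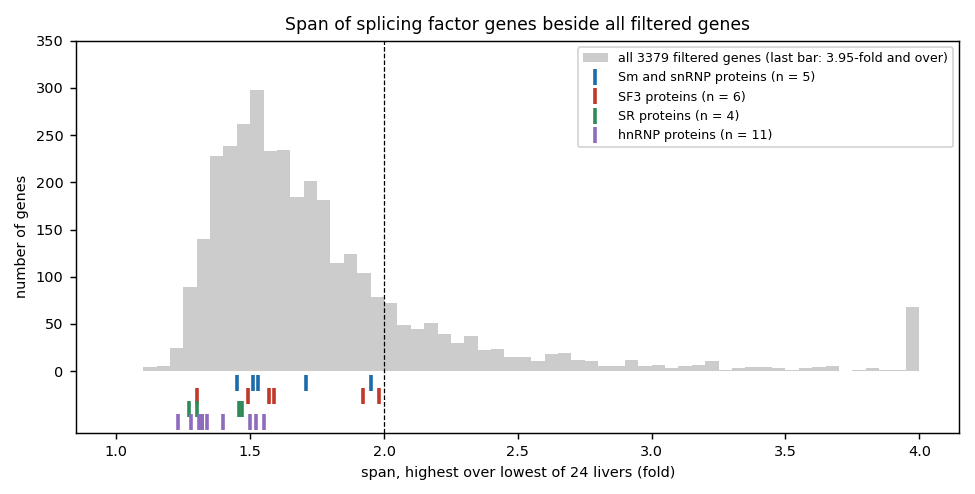
Grey bars give the number of all 3379 filtered genes by span, the highest over the lowest of 24 livers, on a linear axis in fold, with the widest spans gathered in the last bar. Coloured ticks mark the 26 members by role, and all of them lie left of the dashed line at 2-fold, from HNRNPK at 1.23-fold to SF3A1 at 1.98-fold.

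The members differed by role in how far they spread. The median span was 1.58-fold for the 6 SF3 genes and 1.53-fold for the 5 genes for Sm and snRNP proteins, but 1.38-fold for the 4 SR genes and 1.32-fold for the 11 hnRNP genes. The 3 widest members were SF3A1, SNRPD2 and SF3B4, and 80.2%, 78.8% and 76.8% of all filtered genes had spans no wider than theirs. At the other end only 0.769% of the filtered genes had a span as narrow as HNRNPK or narrower, 1.95% as narrow as SRSF6 and 2.34% as narrow as HNRNPU. Of the 10 members over 1.5-fold, 4 encode Sm and snRNP proteins, 4 SF3 proteins and 2 hnRNP proteins (HNRNPD and HNRNPH3). Of the genes for Sm and snRNP proteins, SNRPA1, SNRPC and SNRPG reached down into the background of their own arrays. SNRPD2 came near it in its lowest liver, fetus 370, at 6.58 against 6.559. The part of the background in these spans was not tested.

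**Figure D2:**
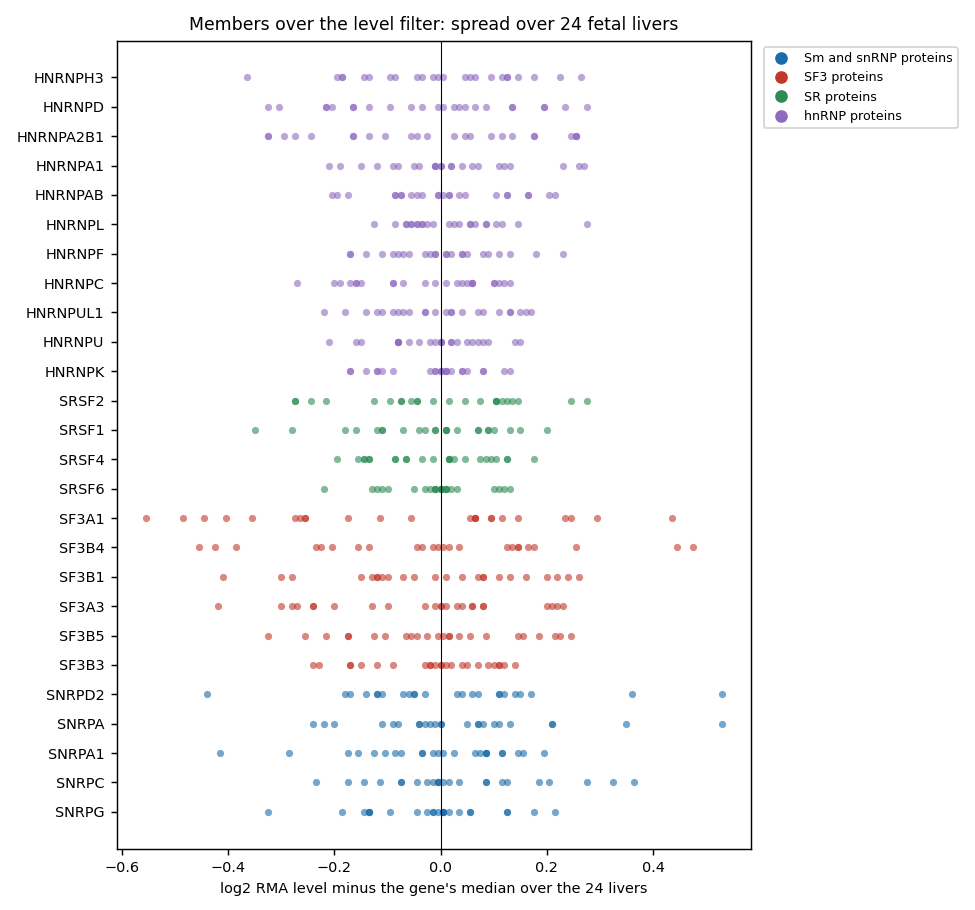
Each point is 1 of 24 livers, and the x axis gives the log2 RMA level minus the gene's own median, with genes grouped by role and ordered by span. The points of SF3A1, SF3B4 and SNRPD2 have the widest total range, and those of HNRNPK, HNRNPU and SRSF6 stay within a range of 0.30 to 0.36.

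Among the Sm and snRNP proteins, SNRPD2, a member of the Sm ring, had a level of 6.58 in the lowest liver, a median of 7.02 and a level of 7.55 in the highest, a 1.95-fold span. The extremes were single livers, fetus 370 at the low end, where the next liver had 6.84, and fetus 303 at the high end, where the next had 7.38. SNRPA, the A protein of the U1 snRNP, had a median of 7.87 and ran from 7.63 in fetus 363 to 8.40 in fetus 281. SNRPC, another protein of the U1 snRNP, ran from 5.93 to 6.53 with a median of 6.16 and was below 6 in 2 livers, which leaves it close to background throughout. SNRPA1 encodes the U2 A′ protein of the U2 snRNP. Its level was 6.13 in fetus 384, 6.55 at the median and 6.74 in fetus 363. SNRPG, a second member of the Sm ring, had levels of 6.11 to 6.65 with a median of 6.43 and the narrowest span of this role, 1.45-fold. Fetus 384 was the lowest liver for both SNRPA1 and SNRPG, and fetus 355 was the next lowest for both.

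The SF3 genes spread most. SF3A1, a subunit of the SF3A complex, had a level of 7.07 in fetus 384, a median of 7.63 and a level of 8.06 in fetus 281. SF3A3, another subunit of this complex, ranged from 7.24 in fetus 297 to 7.89 in fetus 311 with a median of 7.66. SF3B4, an RNA-binding subunit of SF3B, ran from 6.94 in fetus 352 to 7.87 in fetus 281 with a median of 7.40, a 1.92-fold span. SF3B1 encodes the large subunit of SF3B, which contacts the RNA around the branch site. Its levels were 8.52 in fetus 281, 8.93 at the median and 9.19 in fetus 363, a 1.59-fold span. Fetus 281, the highest liver for SF3A1 and SF3B4, was thus the lowest for SF3B1. SF3B3, a large scaffold subunit of the same complex, was far narrower than SF3B1 and SF3B4, with levels of 7.86 to 8.24 and a median of 8.10. SF3B5, a small subunit of SF3B, lay near the limit, with levels of 5.86 to 6.43, a median of 6.18 and 21 livers at or above 6.

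All 4 SR genes had spans under 1.5-fold. SRSF2 had a median of 8.28 and levels of 8.0 to 8.55, and SRSF1, an SR protein that also acts in mRNA export and translation, had a median of 7.66 and levels of 7.31 to 7.86. SRSF4 ran from 6.96 to 7.33 with a median of 7.15. SRSF6 showed the narrowest range of the SR genes, 9.26 to 9.61 with a median of 9.48. The low ends were often shared. Fetus 355 was the lowest liver for SRSF1 and at the lowest printed level for SRSF2, and fetus 272 was the lowest for SRSF4 and SRSF6 and the second lowest for SRSF1. Without fetuses 272 and 283 the span of SRSF6 fell from 1.27-fold to 1.20-fold.

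The hnRNP genes had the lowest median span, although their median SD of 0.12 was that of the SR genes and 2 of them were over 1.5-fold. HNRNPK, which binds C-rich RNA and single-stranded DNA, had levels of 9.74 in fetus 307, 9.91 at the median and 10.04 in fetus 274, the narrowest span of all members. HNRNPU, a nuclear matrix protein that binds RNA and chromatin, ranged from 8.86 to 9.22 with a median of 9.07. HNRNPF, which binds G-rich stretches near splice sites, ranged from 9.08 to 9.48 with a median of 9.25. The widest of this role was HNRNPH3, a relative of HNRNPF, with a 1.55-fold span from 7.17 in fetus 384 through a median of 7.53 to 7.80 in fetus 274. HNRNPD, which binds AU-rich elements and promotes the decay of mRNAs, followed with 6.87 to 7.47, a median of 7.19 and a 1.52-fold span. HNRNPA2B1 had a median of 8.79 and levels of 8.46 to 9.04, and its paralogue HNRNPA1, which often favours the skipping of exons, had a median of 10.22 and levels of 10.01 to 10.49. The lowest livers differed between these paralogues, fetuses 384 and 311 for HNRNPA2B1 and fetus 307 for HNRNPA1. The remaining hnRNP genes HNRNPAB, HNRNPC, HNRNPL and HNRNPUL1 had spans of 1.31-fold to 1.34-fold.

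Correlations between members were more often positive than those between filtered genes in general. Over the 325 pairs of members the median Pearson's r over the 24 livers was 0.228, with a jackknife SE over the livers of 0.0539, against 0.0437 over the 5707131 pairs of all filtered genes. Of the member pairs 256, or 78.8%, had an r above 0, where 55.9% of all gene pairs did. An r above 0.5 was found for 50 member pairs, or 15.4%, against 5.23%, and an r below -0.5 for 3 member pairs, or 0.923%, against 2.47%. The 38 ribosomal protein genes were far more uniform, with a median r of 0.622 and 72.7% of their pairs above 0.5. Aligning the medians of the arrays raised the median r of the members to 0.325 and that of all gene pairs to 0.103. No test was made of the list, because its members were proposed with results of these data known.

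Within roles the median r was 0.348 over 6 pairs of SR genes and 0.326 over 55 pairs of hnRNP genes, and it was 0.341 over the 44 pairs of an SR gene with an hnRNP gene. Of these 44 pairs 40 were positive. The genes for Sm and snRNP proteins had a median of 0.171 over 10 pairs, and the SF3 genes one of 0.137 over 15 pairs. HNRNPF, HNRNPD and SRSF1 had the highest median r with the other members, at 0.418, 0.378 and 0.367. SNRPD2, SF3B4 and SF3B1 had the lowest, at -0.0370, -0.0202 and 0.0725. With SF3B1 5 of 25 members had an r above 0.5 and 1 of 25 an r below -0.5, against 15.8% and 9.80% of all other filtered genes.

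**Figure D3:**
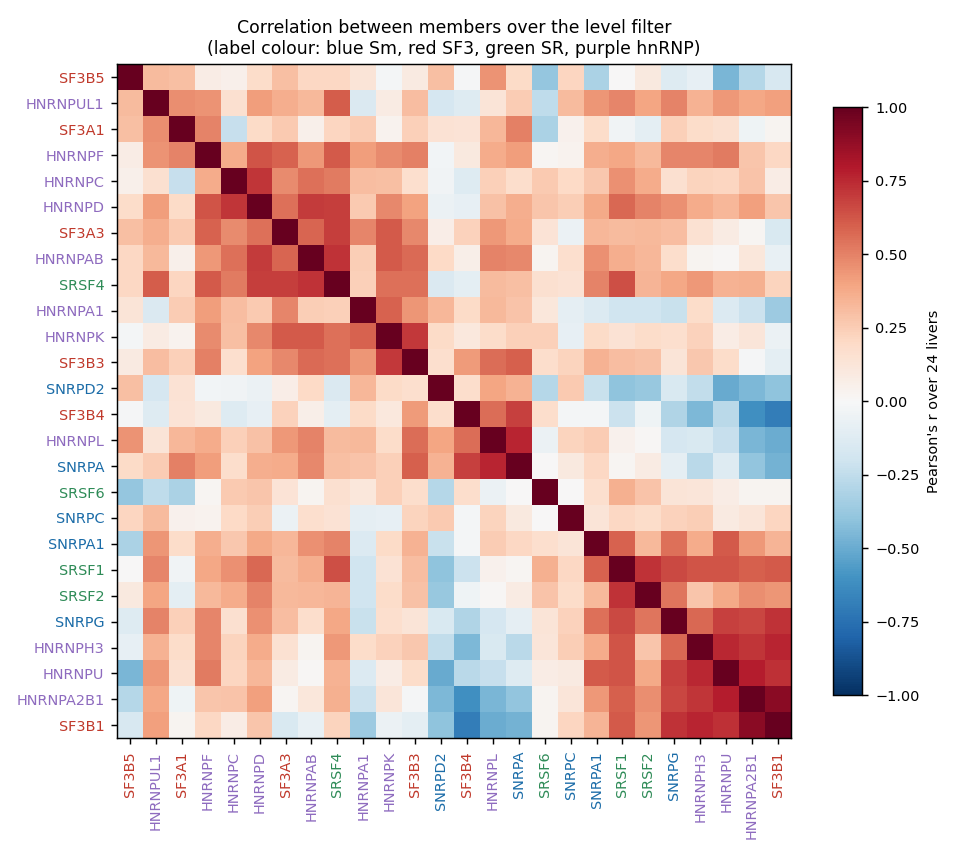
Each cell gives Pearson's r of 2 members over 24 livers, from -1 in blue to 1 in red, and genes are ordered by average-linkage clustering of the same values. SF3B1, HNRNPA2B1, HNRNPU, HNRNPH3 and SNRPG form the red block in the lower right corner, with HNRNPA2B1 and SF3B1 at 0.902, and SF3B4 and SF3B1 give the darkest blue cell at -0.692.

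Some pairs of genes whose proteins are partners in a complex or paralogues were listed for a test. Other partners, such as SF3B1 with SF3B4, were not on the list and were not tested. Of 23 listed pairs 13 had named probe sets for both genes, and both genes passed the filter in 4. SF3A1 and SF3A3, subunits of SF3A, had an r of 0.264 with an adjusted p of 0.627 and a rho of 0.269 with an adjusted p of 0.607. SNRPA and SNRPC of the U1 snRNP had an r of 0.0985 with an adjusted p of 0.662 and a rho of 0.159 with an adjusted p of 0.607. The r of SF3B1 with SF3B3 was -0.0936 with an adjusted p of 0.662, and rho was -0.0835 with an adjusted p of 0.698. The paralogues HNRNPA1 and HNRNPA2B1 had an r of -0.214 with an adjusted p of 0.627 and a rho of -0.195 with an adjusted p of 0.607. None of the 4 relations passed the threshold of 0.05 in the two-sided permutation test with adjustment over the 4 pairs, and the unadjusted p of r was 0.213 at the lowest. Such a p does not show that the partners varied independently. These tests treated sibling livers as independent.

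The closest relation among all members joined genes of different roles. SF3B1 and HNRNPA2B1 had an r of 0.902 and a rho of 0.915, and r was 0.886 once the 2 livers most distant from the SF3B1 median were left out. HNRNPA2B1 was at 9.03 or 9.04 in fetuses 274, 352, 363 and 370, where SF3B1 was between 9.09 and 9.19, and at 8.46 to 8.49 in fetuses 281, 311 and 384, where SF3B1 was between 8.52 and 8.65. SF3B1 was also correlated with HNRNPH3, at an r of 0.763 and a rho of 0.728, with HNRNPU, at 0.727 and 0.783, and with SNRPG, at 0.722 and 0.757. With SRSF1 its r was 0.615 and its rho 0.728. SNRPG was above the background percentile of its own array only in fetus 370, at 6.61 against 6.559. HNRNPA2B1 and HNRNPU had an r of 0.787 and a rho of 0.840. These pairs were chosen after their values were seen and are given without a test.

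The sign was opposite for SF3B4. Its r with SF3B1, its partner in the SF3B complex, was -0.692 and its rho -0.634, and r was -0.521 with the same 2 livers left out. SF3B4 was at 7.87 and 7.84 in fetuses 281 and 311, the lowest livers of SF3B1, and at 6.94, 6.97 and 7.01 in fetuses 352, 274 and 363. With HNRNPA2B1 its r was -0.612 and its rho -0.543. SF3B4 instead varied with SNRPA, at an r of 0.686 and a rho of 0.652, and with HNRNPL, at 0.557 and 0.622. HNRNPL, which binds CA repeats, and SNRPA had an r of 0.758 and a rho of 0.686, but with the mean of all probe sets of each gene r was 0.129. The third r below -0.5 was that of HNRNPU with SNRPD2 at -0.507, with a rho of -0.490. This r was -0.226 once the 2 livers most distant from the SNRPD2 median were left out. Without the 2 most distant from the HNRNPU median it was -0.499.

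**Figure D4:**
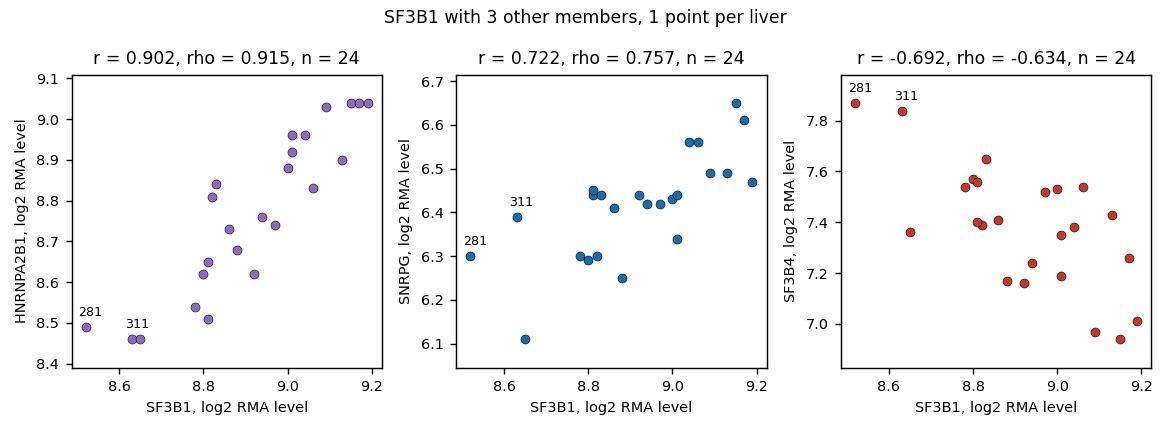
Each point is 1 of 24 livers, with the log2 RMA level of SF3B1 on the x axis and that of HNRNPA2B1, SNRPG or SF3B4 on the y axis. HNRNPA2B1 and SNRPG rise with SF3B1 and SF3B4 falls with it, and fetuses 281 and 311 lie at the low end of SF3B1 in all 3 panels.

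SF3B1 and HNRNPA2B1 varied with the main axis of variation of the livers, as did some of the cell marker lists. Their r with the first principal component of all filtered genes was 0.865 and 0.883, with a rho of 0.923 and 0.897. SF3B4 had an r of -0.613 and a rho of -0.518 with it. Of the members 6 had an r above 0.5 with this component and 1 an r below -0.5, where 15.8% and 14.9% of all filtered genes did. Marker scores, each the mean standardized level of a list, had an r with the component of 0.684 for erythroid cells, -0.728 for granulocytes, -0.652 for endothelial cells and -0.483 for macrophages. For hepatocytes it was 0.301 and for stellate and mesenchymal cells -0.142. Only 4 of 8 listed granulocyte genes and 2 of 9 macrophage genes passed the filter. Fetuses 311 and 312 had granulocyte scores of 2.967 and 2.898, and the r of this score with the component was not taken without them. Without fetuses 311 and 312, the extreme livers of the component, SF3B1 and SF3B4 had an r of -0.631 and SF3B1 and HNRNPA2B1 one of 0.887. The erythroid score had an r of 0.539 and a rho of 0.576 with SF3B1. The granulocyte score had an r of -0.413 and a rho of -0.331 with it, and r was -0.194 with fetuses 311 and 312, its highest livers, left out. The part of these cell markers in the relations was not tested. In a bulk sample fewer cells of a type and less RNA per cell cannot be told apart.

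Genes with several probe sets allowed a check of the measurement. Of the 78 probe sets 39 passed the filter, and in 7 genes they gave 13 pairs of the probe set used with another one, with a median r of 0.452. The probe sets of SF3B1 were the closest, at an r of 0.872 and a rho of 0.824, and the adjusted p was 0.000130 for both measures (two-sided permutation), from 1.00e-05, the smallest p that 100000 resamples can give. Both contain shared probes. The second probe set of SF3B1 had an r of 0.817 with HNRNPA2B1, 0.833 with HNRNPH3, 0.653 with HNRNPU, 0.587 with SNRPG and -0.589 with SF3B4. The signs were thus those of the first probe set. SF3B3 had an r of 0.581 between its probe sets with an adjusted p of 0.0126, and HNRNPA1 one of 0.540 with an adjusted p of 0.0217. The 5 other probe sets of HNRNPF had an r of 0.147 to 0.603 with the one used. For SF3A1, the member with the widest span, the relations of 0.295 and 0.178 did not pass, at adjusted p of 0.213 and 0.491 in the permutation test, and its other filtered probe sets had spans of 1.53-fold and 3.03-fold. The probe sets of SRSF6 had an r of -0.110 with an adjusted p of 0.596. Of the probe sets used, 7 contain probes that the array's design shares between transcripts, those of HNRNPA1, HNRNPF, HNRNPH3, HNRNPUL1, SF3A1, SF3B1 and SNRPD2, and values of these genes may hold signal from near-identical transcripts.

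HNRNPA1 varied with the ribosomal protein genes, which encode the proteins of the cytosolic ribosome. Its r with the mean standardized level of the 38 ribosomal protein genes was 0.783 and its rho 0.821, and r was 0.834 once the 2 livers most distant from the HNRNPA1 median were left out. No other member had an r above 0.5 with these genes, where 10.4% of all filtered genes did, and the next was SNRPD2 at 0.469, with a rho of 0.259. The median over the 26 members was 0.0297. The second probe set of HNRNPA1 had an r of 0.706 and a rho of 0.683 with the ribosomal protein genes. The probe set used contains shared probes and the second one does not, and both gave a positive r.

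The livers were then compared by the mean standardized level of the 26 members. Fetuses 355 and 384 were lowest, both at -1.02, followed by fetus 307 at -0.757. Fetus 274 was highest at 0.822, followed by fetus 370 at 0.667. In fetus 355 only 2 of 26 members were above their own median, in fetuses 384 and 307 only 3, but in fetus 274 there were 22 and in fetus 340 there were 20. Fetus 384 was the lowest liver for SF3A1, SNRPA1, SNRPG, HNRNPA2B1, HNRNPH3 and HNRNPU, and fetus 355 for SRSF1, HNRNPAB, HNRNPC and HNRNPL. Fetus 274 was the highest for SRSF4, HNRNPD, HNRNPF, HNRNPH3 and HNRNPK. These shifts were small, with a median difference from the gene's own median of -0.142 in fetus 355, -0.120 in fetus 384 and 0.111 in fetus 274 on the log2 scale.

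The roles did not always move together in a liver. Fetus 272 had the lowest mean of the SR genes, -1.636, beside a mean of 0.436 for the SF3 genes and 0.417 for the Sm and snRNP proteins. Fetus 340 had the highest mean of the SR genes, 1.473, and one of 0.269 for the Sm and snRNP proteins. In fetus 274 the hnRNP genes were at 1.341 but the Sm and snRNP proteins at -0.013. Fetuses 355 and 384 were low in all 4 roles.

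**Figure D5:**
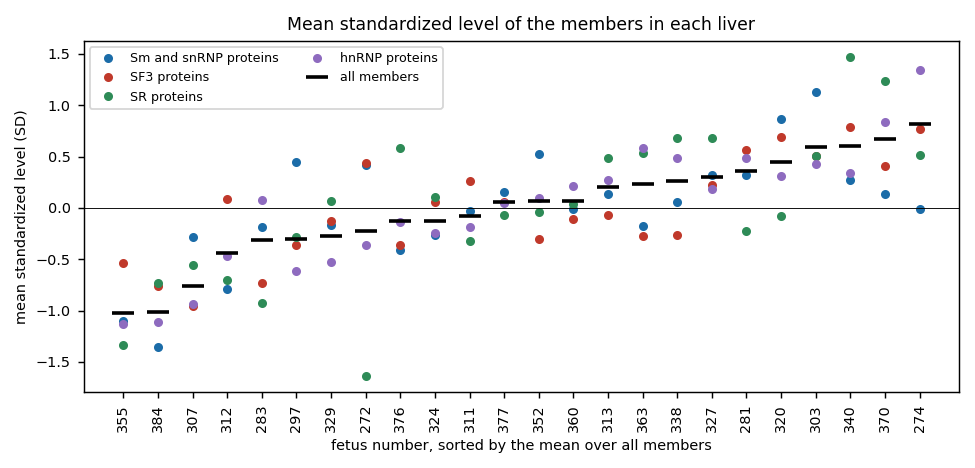
The mean standardized level of the members, in SD, is plotted for each of 24 livers, with a black bar for all 26 members and a coloured point for each role, and livers are sorted by the black bar. Fetuses 355 and 384 lie at -1.02 with all 4 roles below 0, and fetus 272 has SR genes far below its other roles.

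Array measures and erythroid markers moved with this level. Fetuses 384 and 355 had the highest array medians, 2.886 and 2.883, and the r of the members' mean standardized level with the array median was -0.532 with a rho of -0.463, but r was -0.304 with fetuses 355 and 384 left out. Of the 26 members 24 had a negative r with the array median, as did 81.2% of all filtered genes. The erythroid markers had an r of 0.616 and a rho of 0.627 with the members' level, and their summed signal ranged from 13.52 to 14.01 on the log2 scale. Of the members 22 had a positive r with the erythroid markers, where 52.4% of all filtered genes did, and 7 had an r above 0.5, where 12.9% did. SRSF2 and SRSF1 were the highest, at 0.622 and 0.605. The hepatocyte markers had an r of 0.0896 and a rho of 0.250 with the members' level, and the granulocyte, stellate, endothelial and macrophage markers had an r of -0.254 to -0.0604. The part of the array median and of the erythroid markers in the members' shared variation was not tested.

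Other genes of the splicing machinery, from a list of 140 symbols, were set beside the members. Of these 112 had a named probe set and 62 passed the filter. Their median span was 1.51-fold, and 4 of 62, or 6.45%, were over 2-fold, against 18.8% of all filtered genes. The widest was PHF5A, a further subunit of SF3B, from 5.61 in fetus 360 through a median of 6.49 to 7.15 in fetus 272, a 2.90-fold span. CLK1, a kinase that phosphorylates SR proteins, had a median of 7.09 and levels of 6.20 in fetus 312 to 7.65 in fetus 352. PRPF39, a U1 snRNP-associated factor, had a median of 6.69 and levels of 6.03 to 7.29. The lowest level of PHF5A was below 6, and its median lay below the background percentile of 6.52 to 6.89. The lowest levels of CLK1 and PRPF39 were also below that percentile. The spans of PHF5A, CLK1 and PRPF39 thus all reach below that percentile. Of the 62 genes 59 had a positive r with the members' mean standardized level, where 72.1% of all filtered genes that are no members did, and 9, or 14.5%, had an r above 0.5, against 9.36%.

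These genes were also set beside SF3B1, which had an r of 0.865 with the first principal component. The part of that component in the relations below was not tested. An r above 0.5 with SF3B1 was found for 18 of 62, or 29.0%, where 15.8% of all other filtered genes had one, and an r below -0.5 for 4 of 62, or 6.45%, where 9.80% did. The closest were SON, a large SR-related protein of nuclear speckles, with an r of 0.874 and a rho of 0.919, and QKI, an RNA-binding regulator of splicing, with 0.852 and 0.803. CLK1 followed with 0.835 and 0.886, and MBNL1, another regulator of alternative exons, with 0.801 and 0.823. On the negative side WBP11 had an r of -0.720 and a rho of -0.677, PPIE -0.642 and -0.667, SRRM1 -0.619 and -0.673, and SNRNP200, the helicase of the U5 snRNP, -0.553 and -0.611. SON, QKI, MBNL1, WBP11, PPIE, SRRM1 and SNRNP200 were chosen after their values were seen.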

How the data were processed

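Liver RNA of 24 fetuses was hybridized to Affymetrix Snowball arrays, 1 fetus per array. Quality control by the authors used GCOS 1.1.1, and the deposited log2 levels came from RMA in Expression Console. For the probes, the genome build was not given in the sources used here, and no coordinates or sequences are reported. The labels give fetus numbers only, so all livers formed 1 set. Of 47845 probe sets, those named with 1 symbol were used, 1 per gene. Older SFRS symbols were read as SRSF. The filter kept genes with a log2 level of 6 or higher on 75% of the arrays or more, a share taken from the methods.

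The spread of each gene was its highest over its lowest liver. Relations over livers were Pearson's r and Spearman's rho. Fixed pairs and probe sets of 1 gene were tested by two-sided permutation with 100000 resamples and Benjamini-Hochberg adjustment, with siblings treated as independent. Scores are means of levels standardized per gene. The members, gene lists and pairs were chosen with earlier results of these data known. Genes were named by a rule: in each role the 3 widest and 2 narrowest spans, genes of tested pairs, the 3 highest and 3 lowest median r, the 3 failed members of highest mean, the 3 widest other splicing genes and the 10 closest genes in each direction. HNRNPAB, HNRNPC, HNRNPL and HNRNPUL1 were added after their values were seen. Scripts were tested on simulated data. Alternatives changed the limit of the filter and the choice of probe set, and also covered aligned array medians, rho and the leaving out of livers. The number of arrays limits the precision. Python 3.11.15, numpy 2.4.6, pandas 2.3.3 and matplotlib 3.10.9 were used.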

Additional observations from a re-analysis of the deposited data

How the results depend on the processing

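With the mean of all probe sets of a gene, or the probe set with the largest SD, 14 members passed the filter in place of 26, and without a filter all 40 were kept. In place of 0 members, 1 was over 2-fold with the mean of all probe sets (HNRNPA2B1, 2.02-fold), with the largest SD (SF3A1, 3.03-fold) and with aligned array medians (SF3A1, 2.08-fold), and 4 were over 2-fold without a filter (HNRNPH2, HNRNPUL2, SRSF10 and SRSF12), all below 6 in every liver. With a limit of 1.5-fold, added after seeing the data, the number was 10. The median r between members, 0.228, was 0.128 without a filter, 0.325 with aligned medians and 0.206 to 0.253 when each liver was left out in turn. The median r within roles, 0.282, was 0.159 without a filter, 0.190 with the mean of all probe sets, 0.164 with the largest SD and 0.349 with aligned medians. The median span of the 22 members named by rule, 1.49-fold, was 1.80-fold with the largest SD. The tested pairs gave 0 relations past the threshold in every alternative run, but the r of SF3B1 with SF3B3 turned positive, to 0.146 with the mean of all probe sets, 0.238 with the largest SD and 0.0221 with aligned medians. With the largest SD, which can pick probe sets below 6, the r of SF3B1 with HNRNPA2B1 was -0.00483, that of HNRNPL with SNRPA -0.0159 (0.129 with the mean of all probe sets), and that of SF3B1 with SF3B4 -0.0227. The causes were not tested. Members near the background are limited by its 95th percentile of 6.52 to 6.89.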

Other observations

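Outside the list, the filtered genes with the closest course to the members' mean standardized level were named by rule. ARF4, a small GTPase of the Golgi, had the highest r, 0.869, with a rho of 0.890, and levels of 9.08 to 9.51 with a median of 9.25. DNAJC8, a J-domain protein found with spliceosomes, followed at 0.785 with a rho of 0.831, and TCP1, a subunit of the chaperonin that folds actin and tubulin, at 0.783 with a rho of 0.740. MCM6 (0.768) encodes a subunit of the replicative helicase, UBE2C (0.762) a ubiquitin-conjugating enzyme of mitosis and H2AFZ (0.763) a histone variant. ERMAP (0.767) encodes an erythroid membrane protein. PPP1R15B (0.767), USP7 (0.765) and RANBP1 (0.765) complete the 10. Among the genes with a negative r, RTN2, a reticulon of the endoplasmic reticulum, was the farthest at -0.794, with a rho of -0.797 and levels of 6.22 to 7.39. The next were C2orf82 (-0.636), PKIG (-0.585), AGER (-0.581), RUNX3 (-0.570), MAPK8IP2 (-0.568), SMYD2 (-0.567), MIR499 (-0.554), PIGT (-0.550) and MIR1343 (-0.543), as the array's annotation names them. These genes were picked by the same values, and the relations carry no test.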
